A study of Sus scrofa with 13 samples.

Results

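Respiratory complex I, the NADH:ubiquinone oxidoreductase of the inner mitochondrial membrane, was followed through the genes whose platform symbol begins with NDUF. There were 36 such genes, measured by 45 probe sets, out of 6765 genes with 1 symbol and 23999 porcine probe sets on the array. Each gene was represented by its probe set with the highest mean log2 intensity over all 13 arrays, and no measured difference entered that choice of probe set. The gene family and the comparison lists, however, were chosen with earlier results of these data known. The 7 animals of the stem cell group and the 6 of the saline group were female Sinclair miniswine, 3 months old at surgery. All 13 carried an infarct made by permanent occlusion of the first and second diagonal branches of the LAD, the main artery of the front wall. The stem cell group then received 50000000 cells, called MPCs in the labels, in 2 ml saline over 5 injections into the border of the infarct. The saline group received 2 ml saline alone in as many injections. Heart muscle was taken by drill biopsy at month 4, and each animal gave 1 array. The sources used here give neither the origin of the cells nor the site of each biopsy relative to the scar.

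Complex I takes electrons from NADH, passes them to ubiquinone and pumps protons out of the matrix, and it is the largest enzyme of the respiratory chain. Heart muscle, which makes nearly all of its ATP by oxidative phosphorylation, holds much of it. The enzyme is L-shaped: in the matrix arm the N module oxidises NADH and the Q module reduces ubiquinone, while the proximal and distal parts of the membrane arm pump protons. The catalytic core subunits are surrounded by supernumerary (accessory) subunits, and dedicated factors assemble the parts. Of 37 nuclear-encoded subunits listed for these parts, 32 were measured: 8 of the N module, 4 of the Q module, 9 of the proximal and 11 of the distal membrane arm. The other members were the assembly factors NDUFAF1, NDUFAF2 and NDUFAF3, and NDUFA4, which was named as a complex I subunit and is now assigned to complex IV. Another 2 probe sets carried an NDUF symbol together with a second gene's symbol and were left out. Of the mitochondrially encoded ND subunits of complex I, 0 were found on the array by symbol.

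Across the whole array 14399 probe sets were bright enough to test. Array medians lay between 13.5 and 14 intensity units, and pairwise correlations of the arrays between 0.936 and 0.986. All 14 cardiomyocyte markers on the array passed the level required, and their mean log2 lay between 13.76 and 14.12 after stem cells and between 13.72 and 13.97 after saline. With limma and Benjamini-Hochberg adjustment over all probe sets, 0 passed an adjusted p of 0.05 (0% of 14399). At an unadjusted p under 0.05, 5.15% were lower and 5.40% higher after stem cells.

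Complex I transcripts had a lower mean after stem cells in nearly every member, most in the membrane arm. The amounts differed widely between animals, and all membrane arm members measured were supernumerary. Negative log2 differences, stem cells minus saline, were found in 35 of 36 NDUF genes, against 47.2% of all probe sets tested. The median log2 difference was -0.321, against 0.0169 over all probe sets tested. A count of 21 NDUF genes was lower at an unadjusted p under 0.05, against the 5.15% of all probe sets, and 0 were higher. These shares describe a family chosen with earlier results of these data known, and are not independent support. After adjustment over all probe sets 0 of 36 passed, the smallest adjusted p among them being 0.393 (limma). In 0 of 36 genes did the 2 groups separate fully, with every stem cell animal below or above every saline animal; over all probe sets 0.160% separated fully lower and 0.118% fully higher. In these bulk biopsies fewer cardiomyocytes and less transcript per cell cannot be told apart.

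**Figure D1:**
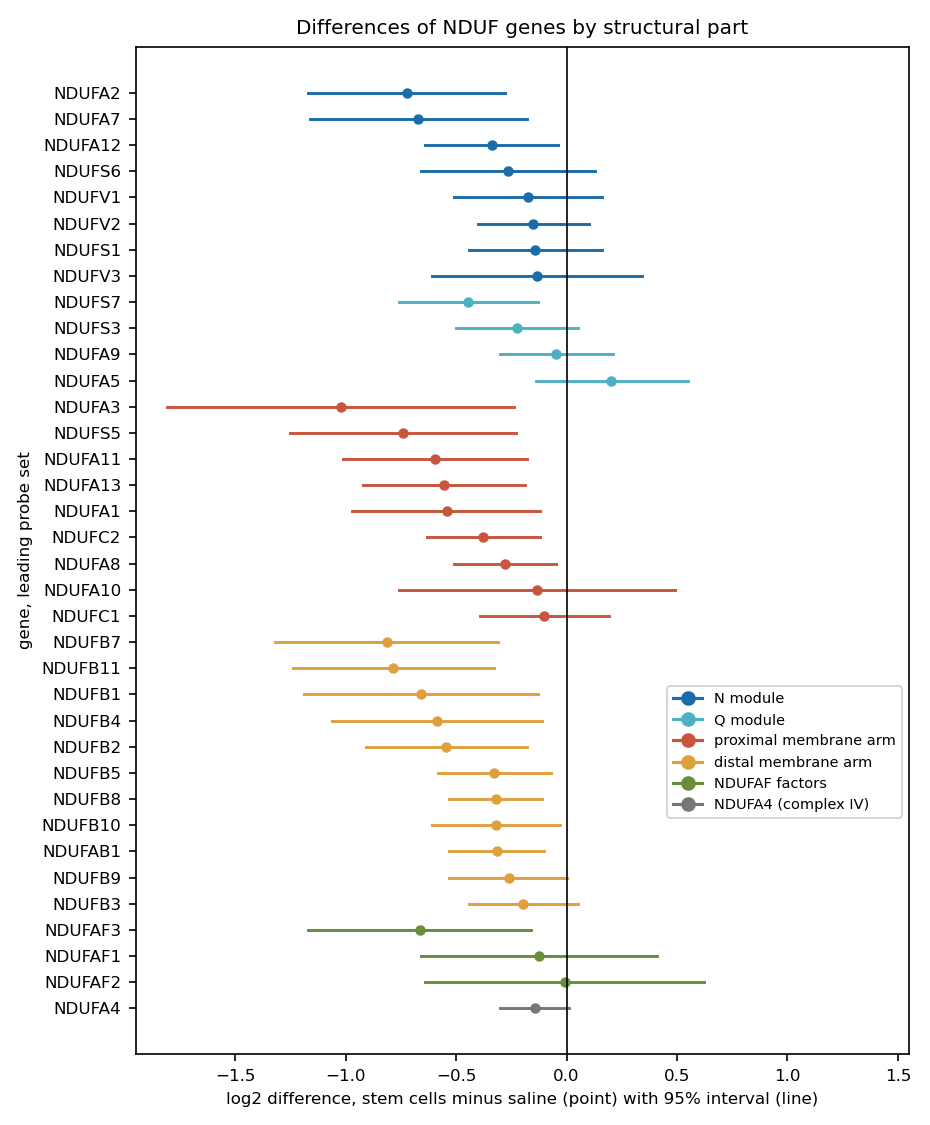
Log2 difference, stem cells minus saline, of each NDUF gene (point) with its 95% interval (line), ordered by structural part. All members but NDUFA5 lie left of 0, and the 21 whose interval stays left of 0 include 16 of 20 genes of the membrane arm.

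The membrane arm carried most of the genes with small p. Of its 20 measured subunits 20 were negative and 16 were lower at an unadjusted p under 0.05. In the matrix arm 11 of 12 were negative and 4 were lower at that level. NDUFA7, NDUFA9 and NDUFAB1 sit at borders between parts, and each was counted in 1 part only. The proximal membrane arm had a median log2 difference of -0.543 and the distal membrane arm one of -0.327, while the N module stood at -0.218 and the Q module at -0.136. Without stem cells replicate 4 the N and Q modules were at -0.133 and -0.0532. The median genomic length of the genes (gene span) was 6.8 kb in the membrane arm and 9.78 kb in the matrix arm. The difference between arms was not tested. The 5 core subunits measured, which are those conserved from bacteria, had a median of -0.174, with 1 lower at an unadjusted p under 0.05. The 27 supernumerary subunits had a median of -0.339, with 19 lower at that level. All 5 core subunits measured lie in the matrix arm, and all 20 membrane arm subunits measured are supernumerary. The contrast of core with supernumerary subunits therefore overlaps with that between arms.

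In the distal membrane arm, the accessory subunit NDUFB11 had the smallest p of all members. Its log2 intensity had a lowest value of 10.24, a median of 10.58 and a highest of 11.52 after stem cells, against 11.36, 11.44 and 11.93 after saline. Stem cells replicates 2 to 6 lay below every saline animal, whereas replicates 1 and 7 lay among the saline animals. The log2 difference was -0.79 ± 0.214 (SE), a level 0.58 times that of saline (limma p of 0.00221, adjusted 0.393). NDUFB7, a cysteine-rich subunit on the face of the intermembrane space, ran from 8.99 through a median of 9.38 to 10.47 after stem cells, and from 10.18 through 10.32 to 10.73 after saline. Replicates 2 to 6 were again below every saline animal, and the log2 difference was -0.82 ± 0.238 (SE; limma p of 0.00367, adjusted 0.393).

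NDUFB8, whose protein is a common immunoblot marker of assembled complex I, varied less between animals. It had values of 12.8, 13.07 and 13.4 (lowest, median, highest) after stem cells and of 13.25, 13.43 and 13.6 after saline. The same 5 replicates were below every saline animal, and all 7 stem cell animals were below the saline mean. Its log2 difference of -0.32 ± 0.0983 (SE) was smaller than that of NDUFB11, with a limma p of 0.00518 and an adjusted p of 0.393. NDUFB2 ran from 11.57 through a median of 12.09 to 12.84 after stem cells and from 12.6 through 12.71 to 12.91 after saline. Stem cells replicate 6 was the lowest animal for this gene, and the log2 difference was -0.54 ± 0.173 (SE). NDUFAB1, the mitochondrial acyl carrier protein, which also serves lipoic acid synthesis, ran from 12.93 through 13.18 to 13.44 after stem cells and from 13.25 through 13.54 to 13.69 after saline, a log2 difference of -0.31 ± 0.102 (SE). For NDUFAB1 stem cells replicates 3 to 6 were below every saline animal, and replicate 2 was not. The remaining 6 genes of the distal arm had log2 differences between -0.66 for NDUFB1 and -0.20 for NDUFB3, and in all 6 the groups overlapped.

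**Figure D2:**
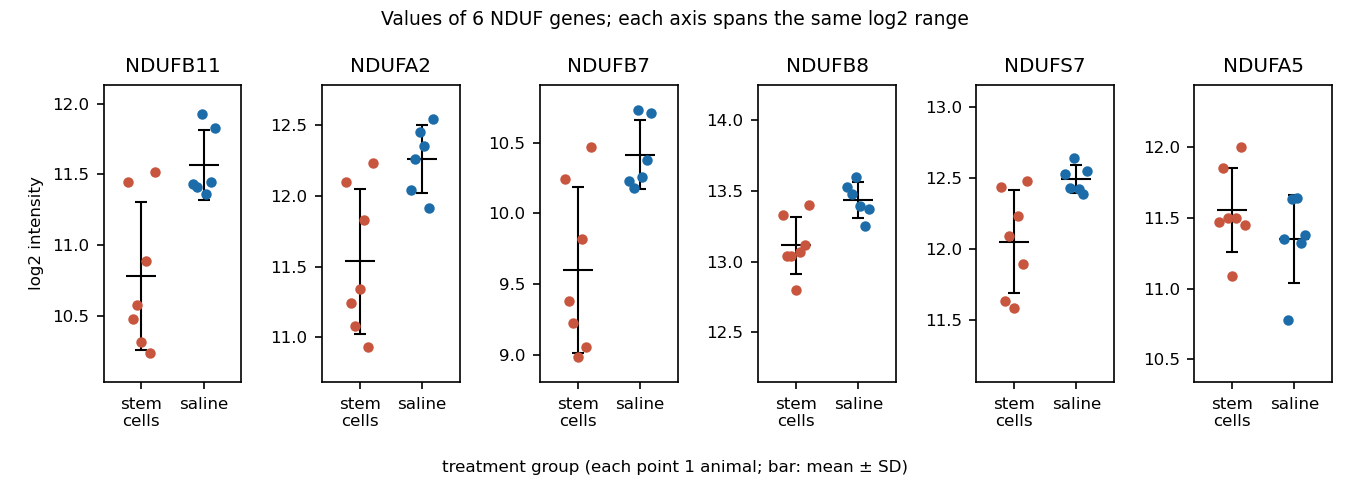
Log2 intensity of NDUFB11, NDUFA2, NDUFB7, NDUFB8, NDUFS7 and NDUFA5 in each animal, with stem cell animals left of saline animals and bars for the mean ± SD (n = 7 and n = 6). In NDUFB11, NDUFA2, NDUFB7, NDUFB8 and NDUFS7 a set of 5 stem cell animals lies below every saline animal while replicates 1 and 7 do not. NDUFA5 shows no such shift.

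In the proximal membrane arm, NDUFA13 and NDUFC2 had the smallest p. NDUFA13, known in human cells as the cell death regulator GRIM-19, ran from 11.02 through a median of 11.32 to 12.09 after stem cells and from 11.93 through 12.07 to 12.36 after saline, a log2 difference of -0.56 ± 0.173 (SE). NDUFC2 ran from 11.12 through 11.32 to 11.75 after stem cells and from 11.63 through 11.72 to 12.1 after saline, a log2 difference of -0.38 ± 0.119 (SE). It was the member closest to full separation: 6 of 7 stem cell animals lay below every saline animal, and only replicate 7 lay within the saline values. NDUFS5, another cysteine-rich subunit of the intermembrane space side, ran from 9.94 through 10.76 to 11.53 after stem cells and from 11.25 through 11.57 to 11.94 after saline, a log2 difference of -0.74 ± 0.241 (SE). NDUFA11, a membrane subunit next to complex III in the respiratory supercomplex, ran from 10.99 through 11.26 to 12.17 after stem cells and from 11.89 through 12.04 to 12.34 after saline, a log2 difference of -0.59 ± 0.195 (SE). For NDUFA13, NDUFS5 and NDUFA11 stem cells replicates 2 to 6 were below every saline animal.

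NDUFA3, singled out after its values were seen, had the most negative difference of the 36 genes and also the widest spread. It ran from 9.06 through a median of 10.15 to 11.55 after stem cells and from 10.87 through 11.43 to 11.85 after saline, with SDs of 0.97 and 0.372. The log2 difference was -1.02 ± 0.368 (SE), 0.491 times the saline level, with a limma p of 0.0138 and an adjusted p of 0.42. NDUFA10 and NDUFC1 of the same arm were at -0.13 ± 0.294 and -0.10 ± 0.135. For NDUFA10 stem cell animals lay on both sides of the saline animals, with 2 below all of them and 3 above.

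In the matrix arm, NDUFA2 of the N module, an accessory subunit with a thioredoxin-like fold, stood out from the core subunits beside it. It ran from 10.93 through a median of 11.34 to 12.23 after stem cells and from 11.91 through 12.3 to 12.54 after saline. Stem cells replicates 2 to 6 were below every saline animal, and the log2 difference was -0.72 ± 0.209 (SE; limma p of 0.00346, adjusted 0.393). NDUFA7 and NDUFA12, also accessory, were at -0.67 ± 0.23 and -0.34 ± 0.14. The core subunits of this module had smaller differences: NDUFV1, which binds NADH and the flavin, was at -0.17 ± 0.157, and its iron-sulphur partners NDUFV2 and NDUFS1 were at -0.15 ± 0.117 and -0.14 ± 0.141. The 95% intervals of these 3 ran from -0.51 to 0.16, from -0.40 to 0.10 and from -0.44 to 0.16, so falls of the size seen in the median supernumerary subunit lay within each. NDUFV3 was the dimmest member; it ran from 4.36 through 4.78 to 5.41 after stem cells and from 4.23 through 5.01 to 5.55 after saline, a log2 difference of -0.13 ± 0.223. No stem cell animal lay outside the saline values on either side for this gene. Leaving out 1 animal gave a difference between -0.278, when it was saline replicate 2, and -0.0137, when it was saline replicate 6.

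In the Q module, NDUFS7, a core subunit that holds the last iron-sulphur cluster before ubiquinone, had the most negative difference and is given in full although 10 members had a smaller p. It ran from 11.58 through 12.09 to 12.48 after stem cells and from 12.39 through 12.48 to 12.64 after saline, a log2 difference of -0.45 ± 0.146 (SE; limma p of 0.0081, adjusted 0.41). NDUFS3 and NDUFA9 were at -0.23 ± 0.129 and -0.05 ± 0.119. NDUFA5 was the single member with a positive difference: it ran from 11.09 through 11.5 to 12 after stem cells and from 10.78 through 11.36 to 11.64 after saline, at 0.20 ± 0.162 (limma p of 0.232, adjusted 0.653). Stem cells replicate 6 was the highest animal for this gene and saline replicate 2 the lowest. Leaving out saline replicate 2 gave a difference of 0.0882, and leaving out stem cells replicate 6 one of 0.127.

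Among the assembly factors, NDUFAF3, which acts early with NDUFAF4, was at -0.66 ± 0.235 (limma p of 0.0126, adjusted 0.42). NDUFAF1, part of the assembly complex of the membrane arm, and NDUFAF2, a paralog of NDUFA12, were at -0.13 ± 0.251 and -0.01 ± 0.296. Their median was -0.126 with all animals. It was 0.015 when stem cells replicate 4 was left out, -0.207 when replicate 6 was, and between -0.262 and -0.0338 when any of saline replicates 1 to 4 was. Of 9 measured assembly factors with other names 5 were negative, with a median of -0.00132. ECSIT, of the same assembly complex as NDUFAF1, had the smallest p among them at -0.47 ± 0.216 (limma p of 0.0453, adjusted 0.459). NDUFA4 was at -0.14 ± 0.0728; it ran from 13.75 through 13.95 to 14.14 after stem cells and from 14.01 through 14.12 to 14.19 after saline, and in stem cells replicates 2 to 6 it was below every saline animal.

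For complex I, stem cell animals differed more from each other than saline animals did. The mean log2 of the 36 genes was 11.32 in the 7 stem cell animals with an SD of 0.315, and 11.70 in the 6 saline animals with an SD of 0.161. In 32 of 36 genes the SD was higher among stem cell animals, with a median ratio of SDs of 1.95, against 52.8% of all probe sets tested and a median ratio of 1.04. For all genes with a span of at most 12.7 kb the share was 58.4% and the median ratio 1.12. The 36 genes vary together, so they are not separate observations of this spread. The wider spread was not particular to complex I. SDs of the mean log2 were 0.392 after stem cells and 0.11 after saline for complex IV, and 0.322 and 0.162 for complex III. They were 0.196 and 0.0833 for complex V, and 0.235 and 0.145 for complex II. Relative to the saline mean, the stem cell animals 1 to 7 stood at -0.05, -0.55, -0.55, -0.75, -0.19, -0.61 and 0.07 on the log2 scale, and the saline animals 1 to 6 at -0.03, -0.16, 0.25, -0.04, -0.15 and 0.13. Replicates 2, 3, 4 and 6 of the stem cell group and, by a narrow margin, replicate 5 were thus below the lowest saline animal, and replicates 1 and 7 were not. Stem cells replicate 4 had 34 of 36 genes below every saline animal, against 18.3% of all probe sets tested on that array. The counts were 26 in replicate 3 (all probe sets, 13.0%), 24 in replicate 2 (2874 of 14399), 23 in replicate 6 (20.7%) and 20 in replicate 5 (13.8%). Replicates 1 and 7 had 2 and 0 such genes, against 10.6% and 10.3% of all probe sets. Among genes with a span of at most 12.7 kb, the share below every saline animal was 37.1% in replicate 4, 31.7% in replicate 3, 38.8% in replicate 2 and 44.2% in replicate 6. It was 20.6% in replicate 5, 11.3% in replicate 1 and 9.27% in replicate 7.

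**Figure D3:**
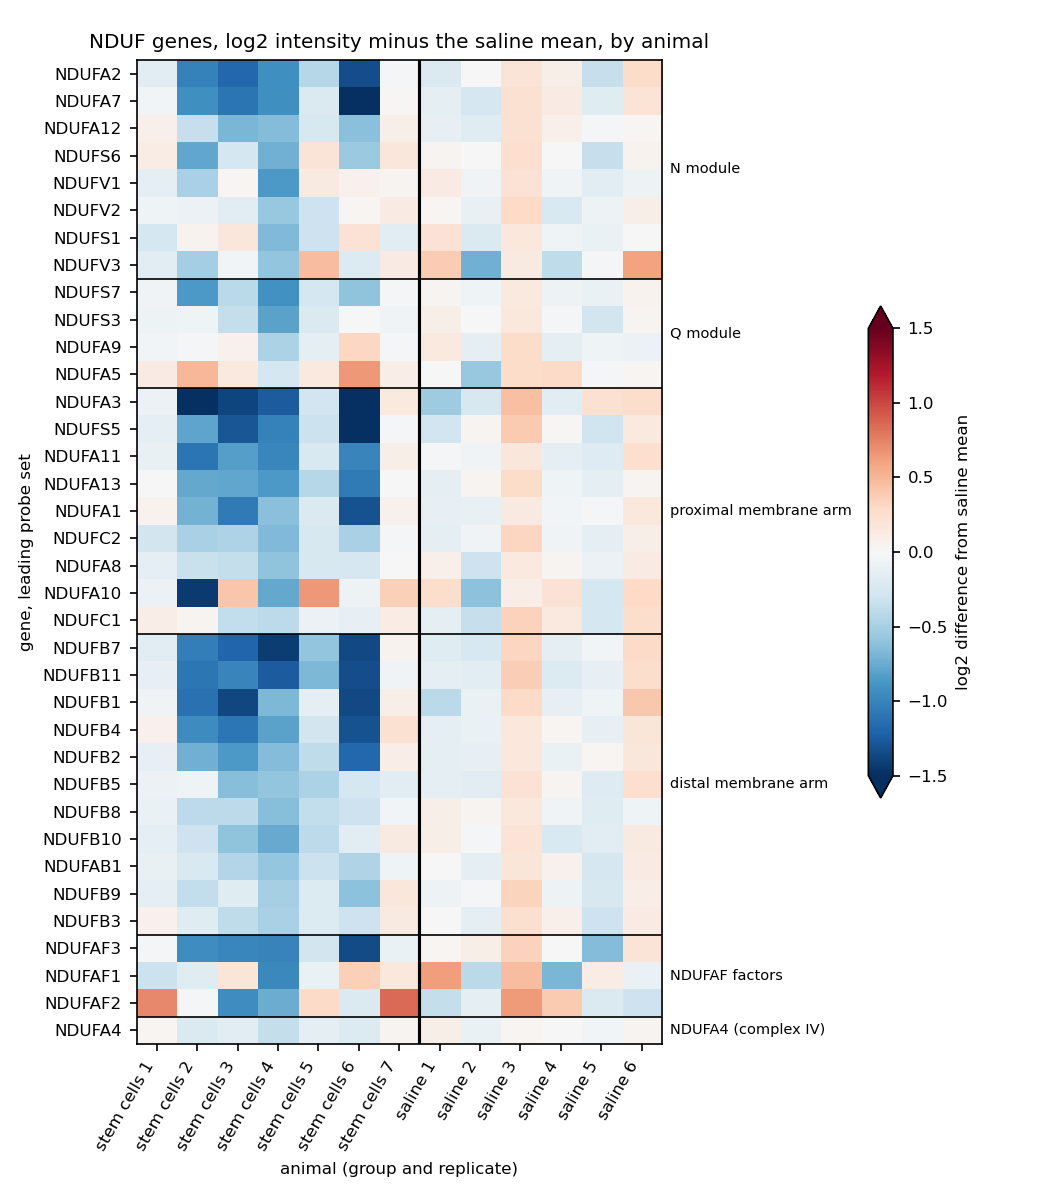
Log2 intensity of each NDUF gene in each animal minus that gene's saline mean (blue lower, red higher), stem cell animals left of the line and saline animals right of it. Stem cells replicate 4 is blue in all 36 rows, and replicates 1 and 7 resemble the saline animals. Replicates 2, 3 and 6 are blue in most rows of the membrane arm. In the Q module these 3 are mixed, blue for NDUFS7 and red for NDUFA5.

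The low stem cell animals did not share one profile. In replicate 4 the parts were alike, with the N module at -0.74, the Q module at -0.61, the proximal arm at -0.80 and the distal arm at -0.76 relative to the saline mean. In replicate 6 the Q module was at 0.09 while the proximal and distal arms were at -0.92 and -0.79. Replicates 2 and 3 lay between these, with the Q module at -0.11 and -0.14 and the proximal arm at -0.84 and -0.68. The core subunits alone were at -0.76 in replicate 4 and between -0.29 and -0.02 in the other 6 stem cell animals. Saline animals lay between -0.14 and 0.20 for the core subunits, with replicate 3 the highest.

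**Figure D4:**
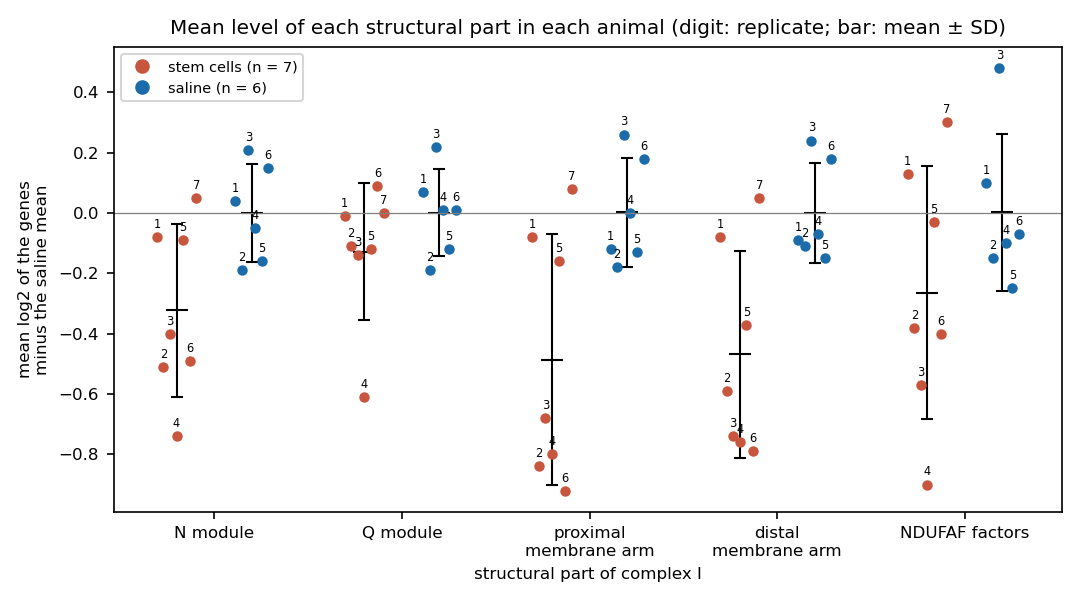
Mean log2 intensity of the genes of each structural part in each animal minus the saline mean of that part; digits are replicate numbers and bars the mean ± SD, stem cells left of saline. In the Q module only stem cells replicate 4 lies far down at -0.61, whereas in both membrane arm parts replicates 2, 3, 4 and 6 lie between -0.92 and -0.59.

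Most members varied together from animal to animal. Over the 13 arrays the median pairwise correlation among the 36 genes was 0.685, and 0.628 with each group's mean removed, as a description of values that share arrays and normalization. NDUFB7, NDUFB11 and NDUFA11 followed the mean of the other members most closely within groups, at r of 0.97, 0.95 and 0.94. NDUFS1, NDUFA5 and NDUFA9 followed it least, at 0.00, 0.08 and 0.21. The 10 genes outside the family most like the mean of complex I, out of 5160 compared over 13 arrays, were COX5B, TIMM8B, ATP5L, MEA1, CUNH14orf2, EMC6, COX7A1, CUTA, LOC100524873 and MRPS24. Their r lay between 0.973 for COX5B and 0.953 for MRPS24, and between 0.962 and 0.924 with group means removed. COX5B and COX7A1 are subunits of complex IV, ATP5L one of ATP synthase, TIMM8B an import chaperone and MRPS24 a protein of the mitochondrial ribosome. MEA1, CUNH14orf2, EMC6, CUTA and LOC100524873 were not classed by function. Likeness to complex I was therefore not shown to be particular to mitochondrial genes.

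Further probe sets were present for 7 genes, 9 in all, of which 2 were too dim to test. For NDUFB3 and the first further set of NDUFS3 the difference had the same sign as the leading set, at -0.12 ± 0.108 and -0.32 ± 0.171, with r to it of 0.79 and 0.88. The other further set of NDUFS3 disagreed, at 0.19 ± 0.177 with an r of 0.21, so the sign for NDUFS3 rests on which probe set is read. Both further sets of NDUFV2, at -0.35 ± 0.161 and -0.18 ± 0.147, were negative like the leading one. They were dim, with a mean log2 of 4.54 and 4.29 against 12.8 for the leading set. The first had a limma p of 0.0464 (adjusted 0.461), against 0.218 for the leading set. NDUFAF1 and NDUFAF2 had further sets at 0.01 ± 0.251 and 0.00 ± 0.134. That of NDUFAF2, with a mean log2 of 3.81, lay near the level required (3.36).

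The other respiratory complexes were read from the same fit, in which 47.2% of all probe sets tested were negative and 5.15% lower at an unadjusted p under 0.05, and 74.9% and 18.0% of genes with a span of at most 12.7 kb. Complex IV was negative in 7 of 7 measured subunits, 5 of them lower at an unadjusted p under 0.05, with a median of -0.338. COX7A2 and COX5B were at -0.68 ± 0.209 and -0.30 ± 0.103. Complex III was negative in 2 of 2, with UQCR10 at -0.55 ± 0.163 and UQCRB at -0.25 ± 0.125. Complex V was negative in 11 of 15 with a median of -0.212, ATP5L and ATP5G1 having the smallest p at -0.35 ± 0.108 and -0.27 ± 0.0938. Complex II, the succinate dehydrogenase, was negative in 3 of 4 with a median of -0.0657, and SDHB and SDHD were at -0.10 ± 0.0951 and 0.11 ± 0.104. By animal, complex II was at -0.54 in stem cells replicate 4 and between -0.08 and 0.16 in the other stem cell animals, and complex IV was at -0.95 in replicate 6. In all these lists 0 members passed after adjustment over all probe sets, and no difference between complexes was tested.

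Short genes as a class had more negative differences than long ones, and most complex I genes are short. Gene span, the genomic length from first to last exon, was known for 36 of 36 members and ran from 1.15 kb for NDUFAF3 to 180 kb for NDUFAF2. Of all genes tested with a span of at most 12.7 kb, 74.9% were negative, 18.0% were lower at an unadjusted p under 0.05, and the median log2 difference was -0.17. Of the 25 NDUF genes in that class 25 were negative, 17 were lower at that level, and the median was -0.446. For the 10 NDUF genes between 12.8 and 39.3 kb the median was -0.146, against -0.0414 for all genes of that class. Across the 36 members the log2 difference followed span with a Spearman rho of 0.60, against 0.33 across 5142 genes; these are descriptions over genes of the same arrays, which are not independent. Brightness moved less with the result: of the probe sets with a mean log2 above 11, 52.5% were negative and 12.0% lower at an unadjusted p under 0.05. The part of gene span in the result was not tested.

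**Figure D5:**
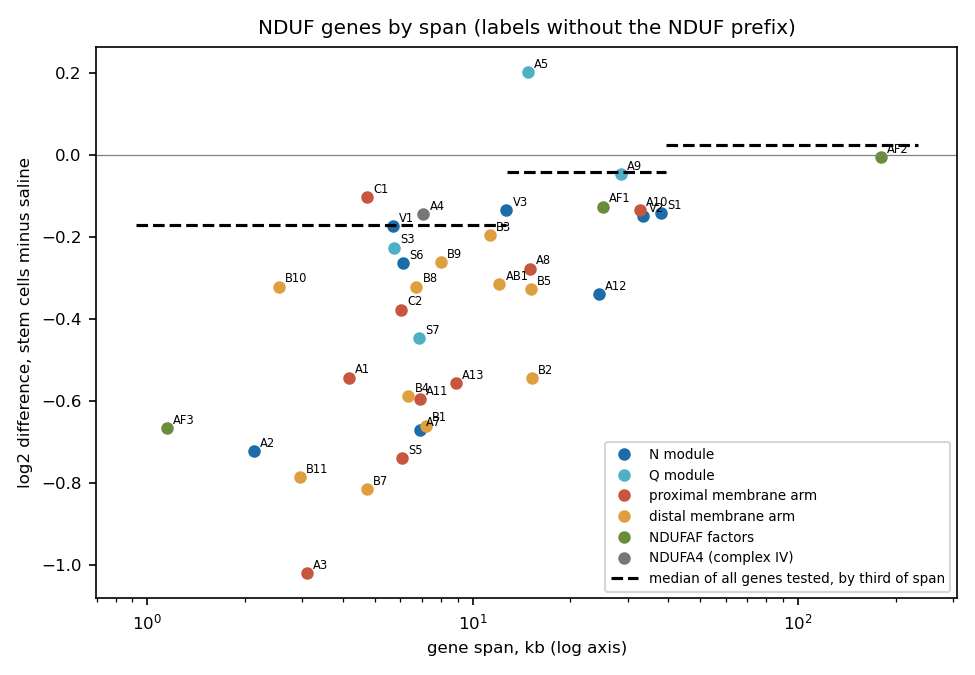
Log2 difference, stem cells minus saline, of each NDUF gene against its genomic span in kb on a log axis, coloured by structural part, with dashed lines for the median of all genes tested in each class of span (-0.17, -0.0414 and 0.0244). Members under 12.7 kb lie mostly below the dashed line of their class.

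RNA integrity was read from control probe sets at both ends of a transcript, where a higher log2 ratio of 3' over 5' signal goes with more degraded RNA. The EF1A ratio averaged 0.815 in the 7 stem cell animals (SD 0.107) and 0.947 in the 6 saline animals (SD 0.0984; two-sided exact permutation p of 0.046, adjusted 0.138 over 3 ratios). The ratios for actin and GAPDH were 2.89 and 0.535 after stem cells and 3.13 and 0.522 after saline (exact permutation p of 0.664 and 0.959). With the EF1A ratio as a covariate the median of the 36 genes was -0.32 and 33 were negative. In that fit 27 of 36 genes had a difference closer to 0, the median of the proximal arm was -0.42, and the SE was larger by a median ratio of 1.23. A count of 9 genes was lower at an unadjusted p under 0.05 in place of 21, against 5.08% of all probe sets in that fit. All 12 genes no longer counted had a smaller difference, such as NDUFB5 at -0.137 in place of -0.327 and NDUFB2 at -0.409 in place of -0.545. The 9 were NDUFB8, NDUFS7, NDUFB11, NDUFA2, NDUFA11, NDUFC2, NDUFA13, NDUFB7 and NDUFAF3, all among the 21.

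Markers of the cells in the biopsies were set beside these values. Over all probe sets tested 47.2% were negative, and 5.15% were lower and 5.40% higher at an unadjusted p under 0.05. Of 14 cardiomyocyte markers 3 were negative, with a median of 0.0735, and their mean log2 was 13.92 in stem cell animals (SD 0.126) and 13.86 in saline animals (SD 0.0961). Of 11 fibroblast and scar markers 4 were negative and 1 was higher at an unadjusted p under 0.05, with a median of 0.111. Relative to the saline mean, scar markers stood at -0.40, 0.47, 0.15, 0.92, 0.36, -0.67 and -0.55 in stem cell animals 1 to 7. In saline animals 1 to 6 they stood at -0.54, 1.04, -0.09, 0.14, -0.04 and -0.51. Macrophage markers were negative in 5 of 6, with 2 lower at an unadjusted p under 0.05 and a median of -0.5, a more negative value than that of complex I. They averaged 6.28 ± 0.434 after stem cells and 6.71 ± 0.353 after saline (SD, n = 7 and n = 6). Smooth muscle markers were negative in 3 of 4, with 1 lower at that level and a median of -0.271. Their means lay between 8.26 and 10.43 after stem cells and between 9.27 and 10.69 after saline and were lowest in stem cells replicates 6 and 2. Endothelial markers were negative in 5 of 7 tested, with ENG lower and TEK higher at an unadjusted p under 0.05. Fat cell markers were negative in 1 of 2 and red blood cell markers in 0 of 2. MYH2 and TNNT3, the skeletal muscle markers on the array, were too dim to test. With the cardiomyocyte mean minus the scar mean as a covariate the median of the 36 genes was -0.325. In that fit 22 of them were lower at an unadjusted p under 0.05, against 5.8% of all probe sets. The part of macrophages and smooth muscle in the result was not tested.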

How the data were processed

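The authors deposited 1 linear intensity per probe set and array, computed with GCRMA according to the submitters' processing notes, whose version and settings are not given in the sources used. GCRMA corrects background, normalizes between arrays and summarises probes, so a shift common to most transcripts is removed. Of 24123 probe sets, 124 controls were left out, and the others were put on the log2 scale. A probe set entered the tests if its mean log2 over the 13 arrays was above the 40th percentile (3.36); 43 of 45 NDUF probe sets and all 36 leading ones passed. The highest mean of 17 tag controls was 2.58.

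Stem cells minus saline was fitted with limma 3.58.1 under R 4.3.3 (lmFit, eBayes with an intensity trend), with Benjamini-Hochberg adjustment over all 14399 probe sets and no covariate; the median SE was 0.18. The fit was tried on simulated data with independent noise for each probe set. That trial does not cover genes that vary together, as the NDUF genes do. Symbols are those of the platform annotation, which can be old. Spans come from the assembly Sscrofa11.1, matched by gene ID for 36 of 36 members; no build is stated for the array, so no coordinates are given. Values of every animal were summarised by a rule: the 10 members with the smallest p, those with a positive difference, and the brightest and dimmest. For EF1A, actin and GAPDH the control ratio used one probe set at each end.

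The members and lists were chosen with earlier results of these data known. Nothing in the labels pairs animals across groups by number. Alternatives tried were other filters, normalizations, variance models, array weights, a floor, covariates, all probe sets of a gene, an adjusted p of 0.10, a replicate block and leaving out each animal. Promoter and protein sequences were not analysed here. No batch or date was given, and precision is limited by the 13 arrays.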

Additional observations from a re-analysis of the deposited data

Results flagged for a closer look

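Dixon's test for 1 animal far from the others of its group picked out 3 of 90 sets of values, where chance alone picks about 1 in 20. In saline replicate 5, NDUFAF3 was at a log2 of 8.86 against 9.50 to 9.85 in the other 5 saline animals (gap over range 0.648). In saline replicate 2, NDUFA5 was at 10.78 against 11.32 to 11.64 in the others (0.63). In stem cells replicate 4, the mean of the Q module genes was at 11.48 against 11.95 to 12.18 in the other 6 stem cell animals (0.68).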

How the results depend on the processing

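Over 13 alternative settings other than leaving out an animal, 0 NDUF genes and 0 probe sets passed the adjusted threshold of each fit, which includes an adjusted p of 0.10. Leaving out saline replicate 5 gave 1 probe set on the whole array and no NDUF gene; the other 12 such fits gave 0. The count of NDUF genes lower at an unadjusted p under 0.05, 21 with all animals, was 19 to 24 with 1 animal left out and 9 with the EF1A ratio as a covariate, where the SE was larger and all 12 genes no longer counted had a smaller difference; in the other 12 settings it was 18 to 23. The share of all probe sets lower at that level was between 3.73% and 6.23% over all settings, and 5.08% with the EF1A ratio as a covariate. The count of negative genes was 32 to 35 over all settings. With 1 animal left out the median log2 difference of all NDUF genes ran from -0.362 to -0.269, of the N module from -0.286 to -0.133, of the Q module from -0.184 to -0.0532, of the proximal arm from -0.644 to -0.416, of the distal arm from -0.397 to -0.284 and of the NDUFAF genes from -0.262 to 0.015. Only the last changed sign, without stem cells replicate 4, and the cause was not tested. The Q module was at -0.0877 after a second quantile normalization and -0.0825 with all probe sets of a gene averaged, where the NDUFAF genes were at -0.0598. All 13 single genes followed through the alternatives kept their sign.

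Same-numbered animals had correlations of their deviations between -0.266 and 0.237, and 1 of 6 numbers had its own partner as the best match, so the numbers were not read as pairs. With a replicate block, 22 NDUF genes were lower at an unadjusted p under 0.05, 35 were negative, 0 passed after adjustment, and the median was -0.362, the same as without stem cells replicate 7, which has no partner. With 13 arrays the median SE of 0.18 is more than the NDUF differences closest to 0.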
